A study of Mus musculus with 3 samples.

Results

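The Hippo pathway genes described here are Yap1, Wwtr1, Tead1, Tead2, Tead3, Tead4, Lats1, Lats2, Stk3 and Nf2, which were chosen by name. All 10 of the 55487 genes in the count table were found once each, by matching Ensembl identifiers to GENCODE M21 symbols. They were measured by RNA sequencing, after removal of ribosomal RNA, in mpkDCT4a cells, a mouse kidney line labelled as distal convoluted tubule (DCT). The 3 libraries form 1 group with no contrast of genotype, treatment or time, so no comparison between conditions exists. The cells were grown at 37 °C with 2% serum and 20 mM glucose, and with added hormones and growth factor: insulin at 5 µg/ml, EGF at 10 ng/ml, dexamethasone at 50 nM and thyroid hormone (triiodothyronine) at 1 nM. The medium also held transferrin at 5 µg/ml, selenate at 90 nM, 2 mM glutamine and 20 mM HEPES, under 5% CO2. Whether the replicates are separate cultures, and how the line was derived, is not stated in the labels, so the p-values below speak of the spread among 3 libraries, which may be technical.

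The Hippo pathway is a kinase cascade that restrains growth. The MST kinases, one of which is encoded by Stk3, and the merlin protein encoded by Nf2 activate the LATS kinases, which phosphorylate the coactivators YAP and TAZ and keep them out of the nucleus. When YAP (Yap1) and TAZ (Wwtr1) enter the nucleus they bind TEAD factors, which contact DNA, and switch on genes of growth, adhesion and matrix. In the kidney the pathway is known for its part in nephron formation, tubular repair and fibrosis, and serum, cell density and cell shape are known to act on it in cultured cells.

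Summed over genes, replicate 1 had 436983 counts, replicate 2 had 482418 and replicate 3 had 443192. Levels are given in CPM, the counts scaled to library size, and, wherever genes are compared with each other, in TPM, which divides counts by exon length before scaling to a common total. The threshold for detection was a mean of 1 CPM or more. With 0 counts in all libraries, a level of up to 2.20 CPM is still allowed (3 counts over the group). Of the defining markers of the distal convoluted tubule, 4 of 10 were detected: the kinase gene Wnk4 at 45.2 ± 11.2 CPM (24, 16 and 21 counts), and Trpm6, Kcnj10 and Egf at 8.84, 6.67 and 2.23 CPM. Only Wnk4 reached 10 CPM, and Egf, from 2, 1 and 0 counts, was near the level that 0 counts still allow. The cotransporter gene Slc12a3, the parvalbumin gene Pvalb and 4 others had 0 counts. The list summed to 71.5, 45.6 and 71.7 CPM in replicates 1, 2 and 3. Of other cell types, 2 of 7 fibroblast, 1 of 6 endothelial and 2 of 6 leukocyte markers were detected. The summed levels of these lists lay between 6.72 and 16.6 CPM for fibroblasts, 9.23 and 11.2 CPM for endothelium and 37.3 and 62.7 CPM for leukocytes. The leukocyte sum was mostly Csf1r, at 45.8 ± 11.6 CPM (SD, n = 3), a gene with 15.1% of its exon bases opposite Hmgxb3, which had 113 counts. Cd68 was also detected, at 3.72 CPM (2, 1 and 2 counts), whereas Ptprc, Adgre1, Lyz2 and Cd3e had 0 counts. Of endothelial markers Flt1 was detected, at 10.3 CPM, and Pecam1 and Cdh5 had 0 counts. Of fibroblast markers Col1a1 and Pdgfrb were detected, at 7.25 and 2.15 CPM, and Col3a1 and Pdgfra had 0 counts. The part of such cells in the levels below was not tested, and in bulk RNA fewer cells of a type and less RNA per cell cannot be told apart.

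All 10 Hippo genes were detected, against 50.6% of 21974 protein-coding genes. All 10 also reached 10 CPM, against 40.8% of protein-coding genes, and all 10 had a count in every library, against 46.6%. These 10 genes were chosen with earlier results of these data known, so the shares describe them and test nothing. Together they held 602 counts in replicate 1, 719 in replicate 2 and 636 in replicate 3. That is 0.138% (95% Wilson interval 0.127 to 0.149), 0.149% (0.139 to 0.160) and 0.144% (0.133 to 0.155) of the counts, with intervals that overlap. The median of the 10 means was 74.5 TPM, while the 11122 detected protein-coding genes had a median of 31.4 TPM and an upper quartile of 72.0 TPM. 8 of the 10 lay above that median, and Lats2 (30.8 TPM) and Tead3 (16.9 TPM) lay below it. Lats2 is close to the median: 9 lay above it without replicate 1, and 9 when lengths left out exon bases shared on the same strand, with Lats2 then at 52.1 TPM. Per merged exon length Wwtr1, the highest, had 9.52 times the level of Tead3, the lowest, and both held these places in every library. The top place rests on length: with the longest transcript as length Tead2 had 129 TPM and Wwtr1 128 TPM. In CPM, which has no length correction, Tead1 (282) and Lats1 (236) stood above Wwtr1 (209), and Tead3 (30.8) was still the lowest.

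**Figure D1:**
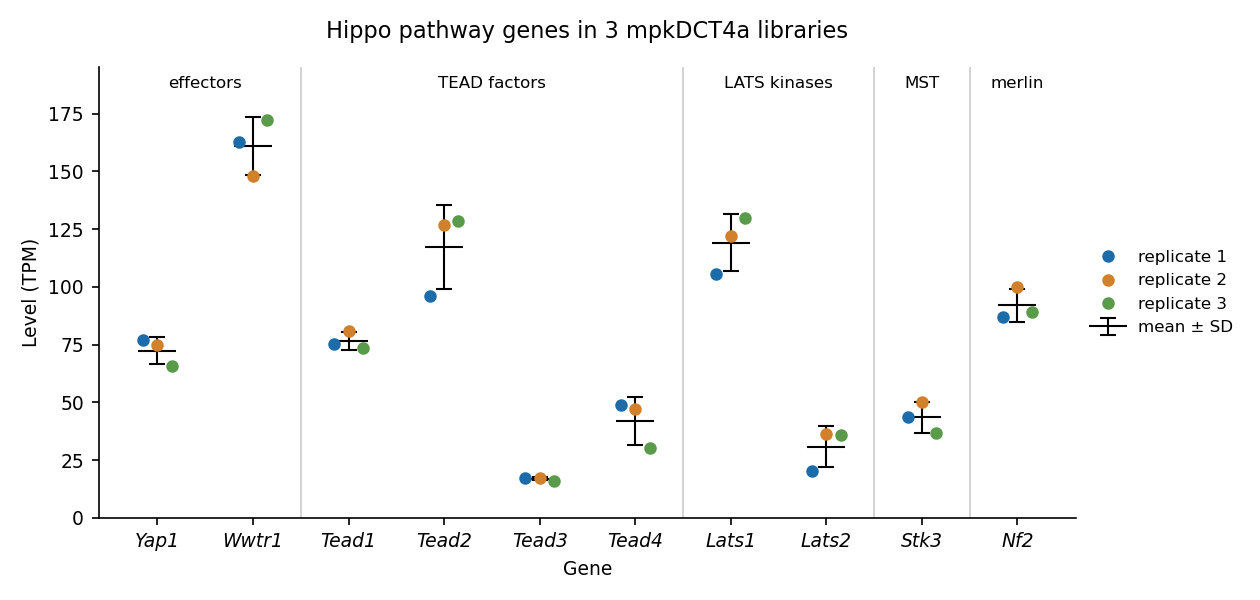
Level in TPM (vertical axis, from 0) of the 10 genes (horizontal axis, by role) in replicates 1, 2 and 3, with the mean and SD over the 3 libraries as black bars. Wwtr1, at 148 to 172 TPM, is above every other gene in each library, and Tead3, at 16.1 to 17.4 TPM, is the lowest.

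The coactivator genes were both expressed, with Wwtr1 above Yap1. Wwtr1 (ENSMUSG00000027803, GRCm38 chromosome 3, 57455649 to 57575910, minus strand, 7 merged exons) had 163, 148 and 172 TPM in replicates 1, 2 and 3, from 93, 92 and 99 counts. Yap1 (ENSMUSG00000053110, chromosome 9, 7931999 to 8004596, minus strand, 12 merged exons) had 76.8, 74.6 and 65.6 TPM, from 85, 90 and 73 counts. The ranges did not overlap: the lowest Wwtr1 library stood well above the highest Yap1 library. Per merged exon length, Wwtr1 had 2.22 times the level of Yap1 (95% counting interval 1.86 to 2.64) and made up 68.9 ± 3.11% of the transcripts of the pair (SD, n = 3). The size of this difference rests on length. The merged exons of Yap1 span 9257 bases over 10 annotated transcripts, the longest of which has 5282 bases, and with the longest transcript as length the ratio was 1.29 (1.08 to 1.53). In counts alone it was 1.15 (0.962 to 1.36), an interval that includes no difference.

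The regions just before the start sites of both coactivator genes hold the letters that TEAD factors are known to recognise. They are shown because YAP and TAZ have no DNA-binding domain of their own and act through TEADs. The 250 bases before the RefSeq start site (GRCm38.p6) were searched for GGAATG and for CATTCC, its form on the other strand, which cannot overlap each other here, and matches are in capitals. The Yap1 window is chr9:8004597-8004846, minus strand, with a match at position -141 from the start site, and the Wwtr1 window is chr3:57575911-57576160, minus strand, with a match at position -136.
Yap1: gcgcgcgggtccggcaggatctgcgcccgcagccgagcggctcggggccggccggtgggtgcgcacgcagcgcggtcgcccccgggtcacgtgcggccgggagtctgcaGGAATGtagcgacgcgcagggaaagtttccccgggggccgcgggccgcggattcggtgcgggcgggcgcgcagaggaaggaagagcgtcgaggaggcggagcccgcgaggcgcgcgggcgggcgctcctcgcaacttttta
Wwtr1: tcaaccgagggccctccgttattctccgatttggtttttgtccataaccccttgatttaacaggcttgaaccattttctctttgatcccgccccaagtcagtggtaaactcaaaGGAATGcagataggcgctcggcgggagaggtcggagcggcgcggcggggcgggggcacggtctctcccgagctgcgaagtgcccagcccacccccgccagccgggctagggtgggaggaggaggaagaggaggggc
Of all 32851 such windows in the table, 12.6% hold the motif. Windows were found for 7 of the 10 genes, and 5 of their 12 windows held it: that of Yap1, both of Wwtr1, which overlap each other, and 2 of 3 of Tead3, which also overlap. No window of Tead2, Lats1, Lats2 or Nf2 held it. The 3 other genes are Tead1, Tead4 and Stk3. A match describes letters only, and whether a factor bound there was not measured.

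Among the TEAD factors, Tead2 and Tead1 supplied most transcripts. Tead2 (ENSMUSG00000030796, chromosome 7, 45215753 to 45233644, plus strand) had 96.1, 127 and 129 TPM from 55, 79 and 74 counts. Tead1 (ENSMUSG00000055320, chromosome 7, 112679318 to 112906807, plus strand) had 75.2, 80.9 and 73.6 TPM from 122, 143 and 120 counts. Both are on chromosome 7, and the ranges of their levels did not overlap. Tead4 (ENSMUSG00000030353, chromosome 6, 128224288 to 128300823, minus strand) had 48.8, 46.9 and 30.1 TPM from 21, 22 and 13 counts. Tead3 (ENSMUSG00000002249, chromosome 17, 28331671 to 28350817, minus strand) had 17.4, 17.2 and 16.1 TPM from 14, 15 and 13 counts. The order of the 4 factors was the same in every library, and no library of one overlapped those of the next.

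As shares of all TEAD transcripts, Tead2 made up 46.3 ± 5.67%, Tead1 30.4 ± 1.13%, Tead4 16.6 ± 4.26% and Tead3 6.71 ± 0.551% (SD, n = 3). Tead1 had 0.653 times the level of Tead2 (counting interval 0.550 to 0.777). This order comes from dividing by length: the merged exons of Tead1 span 13570 bases against 4788 for Tead2, and in counts alone Tead1 had 1.85 times the reads of Tead2 (1.56 to 2.20). With the longest transcript as length the ratio of Tead1 to Tead2 was 0.631 (0.532 to 0.750). Tead1 had 4.54 times the level of Tead3 (3.29 to 6.39) and 1.82 times that of Tead4 (1.37 to 2.46). Tead2 had 6.94 times the level of Tead3 (4.97 to 9.92) and 2.79 times that of Tead4 (2.07 to 3.82). Tead3 had 0.402 times the level of Tead4 (0.263 to 0.610). That last ratio was 0.670 with the longest transcript as length, with an interval of 0.438 to 1.02 that no longer leaves out 1.

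Per merged exon length, the coactivators and their DNA-binding partners stood at similar summed levels. Yap1 and Wwtr1 together had 240, 222 and 238 TPM in replicates 1, 2 and 3, and the 4 TEAD genes together had 238, 272 and 248 TPM. Per merged exon length the ratio of the sums was 1.01, 0.819 and 0.958, or 0.929 ± 0.0983 (SD, n = 3), so that it lay on both sides of 1. With the longest transcript as length the mean ratio was 0.831. These are transcripts and say nothing of the amounts of protein or of where the proteins were in the cell.

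**Figure D2:**
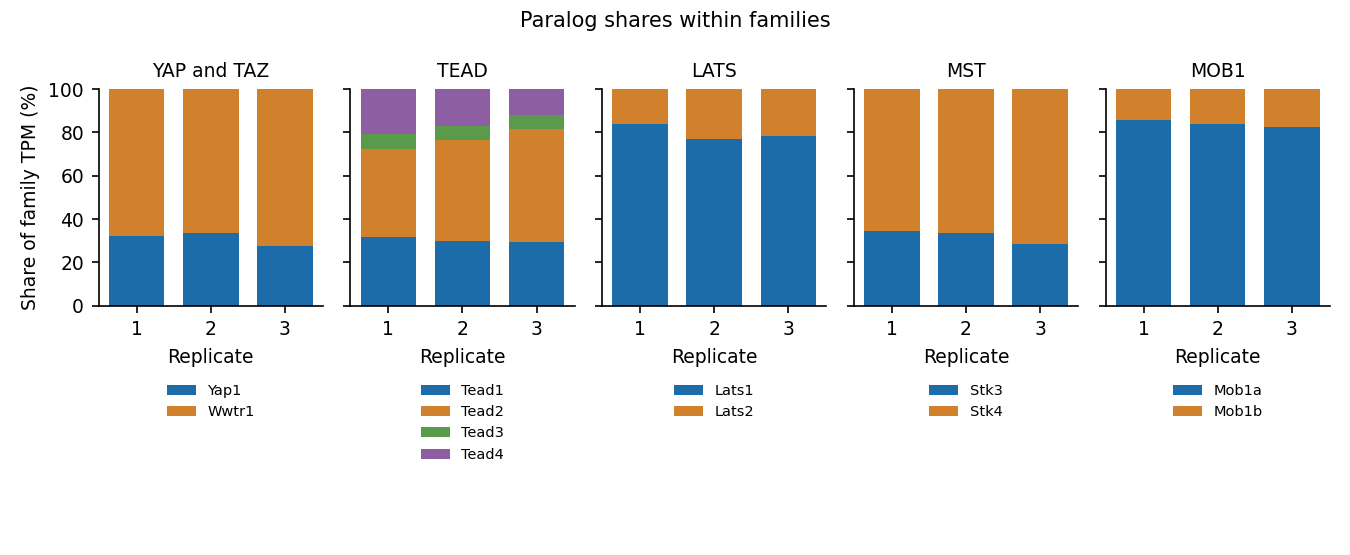
Share in percent (vertical axis, 0 to 100) of each paralog in the summed TPM of its family, for replicates 1, 2 and 3 (horizontal axis), in 5 panels for YAP and TAZ, TEAD, LATS, MST and MOB1. Wwtr1, Tead2, Lats1, Stk4 and Mob1a hold the largest share of their family in each library.

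Of the LATS kinases, which phosphorylate YAP and TAZ, Lats1 was the higher. Lats1 (ENSMUSG00000040021, chromosome 10, 7681214 to 7716460, plus strand) had 105, 122 and 130 TPM from 92, 116 and 114 counts. Lats2 (ENSMUSG00000021959, chromosome 14, 57689662 to 57758388, minus strand) had 20.4, 36.3 and 35.8 TPM from 17, 33 and 30 counts. Replicate 1 was the lowest for both, and the ranges of the genes did not overlap. Lats1 had 3.85 times the level of Lats2 (3.00 to 4.98), with 5.17, 3.36 and 3.63 in the single libraries.

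The counts of Lats2 carry a limit that the other 9 genes do not share. 42.4% of its merged exon bases (2955 bases) also belong to Gm49361, an annotated protein-coding gene on the same strand, and 41.2% of its 50-base stretches occur in that gene. Gm49361 was listed in the count table with 0 counts. How the authors counted reads that match both genes is not stated, and its part in the Lats2 level was not tested. Divided by the 4016 bases that are its own, Lats2 had 34.1, 61.4 and 60.7 TPM, and the ratio of Lats1 to Lats2 was 2.22 (1.73 to 2.87). For the other 9 genes at most 1.35% of the 50-base stretches occurred elsewhere.

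Stk3 encodes MST2, a kinase at the head of the cascade. It had 43.8, 50.2 and 36.7 TPM from 32, 40 and 27 counts (ENSMUSG00000022329, chromosome 15, 34875496 to 35178921, minus strand). Its paralog Stk4, which encodes MST1, had 82.8, 99.6 and 92.3 TPM, above Stk3 in every library. Stk3 had 0.477 times the level of Stk4 (0.371 to 0.610) per merged exon length. With the longest transcript as length the ratio was 0.790, and its interval of 0.615 to 1.01 includes 1, so the difference between the MST paralogs depends on the length used.

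Nf2 encodes merlin, which brings the LATS kinases to the membrane and is a tumour suppressor. It had 87.0, 100.1 and 89.0 TPM from 71, 89 and 73 counts (ENSMUSG00000009073, chromosome 11, 4765845 to 4849536, minus strand). These libraries lay close together, at 92.0 ± 7.07 TPM (SD, n = 3), and the gene stood at percentile 81.2 of the detected protein-coding genes.

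The remaining genes of the core cascade were also expressed. The list of this cassette has 8 genes, 4 of which are among the 10, and all 8 were detected, with a median of 91.8 ± 4.08 TPM (SD over libraries). Sav1, the scaffold of the MST kinases, had 103 ± 14.5 TPM, but 25.4% of its exon bases lie opposite Atl1, which had 8 counts, and the strand setting of the counting is not stated. Mob1a and Mob1b encode the MOB1 proteins that activate LATS, and they had 171 ± 5.19 and 32.7 ± 3.36 TPM. Mob1a had 5.22 times the level of Mob1b (4.33 to 6.31), or 3.38 times (2.81 to 4.09) with the longest transcript as length.

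**Figure D3:**
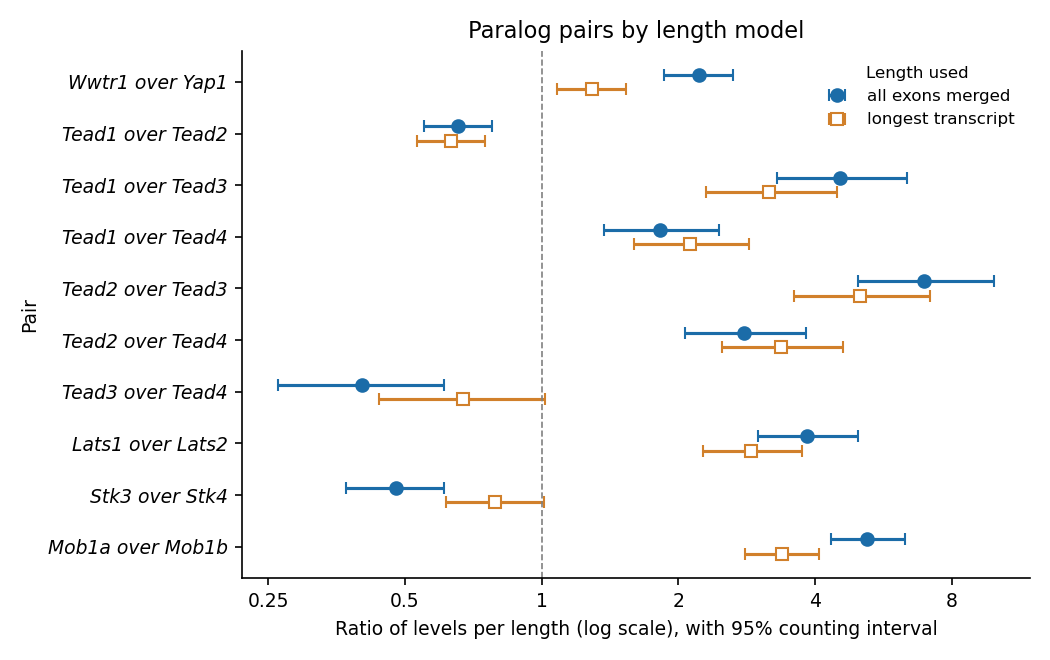
Ratio of levels per length (horizontal log axis) for the 10 paralog pairs (vertical axis), with 95% counting intervals, using all exons merged (filled circles) or the longest transcript (open squares) as length. With merged exons all 10 intervals leave out 1 (dashed line), and with the longest transcript those of Tead3 over Tead4 and Stk3 over Stk4 include it.

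In all, 10 paralog pairs were compared, and in each the 3 libraries gave the same direction. With so few libraries a two-sided exact sign-flip permutation test cannot give a p below 0.25, and it gave 0.25 for each pair, also after Benjamini-Hochberg adjustment over the 10. The intervals therefore carry the comparison, and they cover counting error only.

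When ordered by mean level per length, the 10 genes ran Wwtr1, Lats1, Tead2, Nf2, Tead1, Yap1, Stk3, Tead4, Lats2 and Tead3. Of the 9 neighbouring pairs in this order, 5 had libraries that overlapped. Per merged exon length, Lats1 (119 ± 12.5 TPM) and Tead2 (117 ± 18.2 TPM) did not differ beyond their spread, with a ratio of 1.02 (0.851 to 1.22). The same held for Tead1 (76.6 ± 3.86 TPM) and Yap1 (72.4 ± 5.95 TPM), with a ratio of 1.06 (0.900 to 1.25). It also held for Stk3 (43.6 ± 6.75 TPM) over Tead4 (41.9 ± 10.3 TPM), at 1.04 (0.742 to 1.47), and for Tead4 over Lats2 (30.8 ± 9.05 TPM), at 1.36 (0.946 to 1.93). With the longest transcript as length, Lats1 over Tead2 was 0.729 (0.611 to 0.872) and Tead1 over Yap1 0.823 (0.700 to 0.969). Stk3 over Tead4 was then 1.65 (1.18 to 2.33). Without length correction, in the same order, the ratios were 1.55 (1.30 to 1.85), 1.55 (1.32 to 1.83) and 1.77 (1.26 to 2.50). Tead4 over Lats2 was then 0.700 (0.488 to 0.997). All of these other intervals leave out 1. Tead2 over Nf2 had a ratio of 1.27 (1.05 to 1.54), but their libraries overlapped. Wwtr1 (161 ± 12.4 TPM) over Lats1 at 1.35 (1.14 to 1.58), Nf2 over Tead1 at 1.20 (1.02 to 1.42), Yap1 over Stk3 at 1.65 (1.31 to 2.11) and Lats2 over Tead3 (16.9 ± 0.703 TPM) at 1.83 (1.25 to 2.73) had separate libraries. The interval of Nf2 over Tead1 included 1 without replicate 2 (0.956 to 1.46) and without replicate 3 (0.980 to 1.47). That of Lats2 over Tead3 included 1 with the longest transcript as length (0.859 to 1.88), and the ratio was 3.18 over the unshared bases of Lats2, where Tead4 over Lats2 was 0.781. The sign-flip p of these 9 pairs lay between 0.25 and 0.75 (exact permutation test).

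None of the 10 genes differed between replicates beyond counting error. A chi-square test set the 3 counts of a gene against library size. With Benjamini-Hochberg adjustment over 12473 genes, it called 0 of the 10, against 0.0401% of all genes tested. At an unadjusted p under 0.05 it marked 0 of the 10, against 4.89% of all genes. The smallest p among them was that of Lats2, at 0.128 unadjusted (adjusted chi-square p = 0.902), with replicate 1 low. The biological coefficient of variation that edgeR estimated over all genes was 0.0394. At 42 to 385 counts a gene over the libraries, counting error is the larger part of the spread, and small differences between libraries were not detectable at this depth.

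Around this core, 98 genes in 10 pathway lists were examined. The numbers detected stand against 50.6% of protein-coding genes at 1 CPM and 40.8% at 10 CPM. The MAP4K and TAO kinases, which can activate LATS in place of the MST kinases, were all detected (10 of 10), and 8 reached 10 CPM. Map4k1 (4, 2 and 0 counts) and Tnik (4, 4 and 0 counts) did not. The list had a median of 25.9 ± 2.59 TPM. Taok1 led the list at 146 ± 3.97 TPM, followed by Map4k4 at 98.3 ± 11.3 TPM, Map4k5 at 44.4 ± 4.61 TPM and Mink1 at 38.3 ± 5.78 TPM. The median of this list lay below that of detected protein-coding genes.

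All 11 junctional and cytoskeletal regulators that bind YAP, TAZ or LATS were detected, with a median of 57.7 ± 3.98 TPM. Wwc1, which encodes the LATS activator KIBRA, was the highest at 266 ± 20.1 TPM, above each of the 10 Hippo genes in every library. The LIM protein gene Ajuba, whose product holds back LATS, had 167 ± 5.47 TPM. Ptpn14, a phosphatase that binds YAP, had 112 ± 4.67 TPM, and Amotl2, an angiomotin that retains YAP in the cytoplasm, had 89.1, 86.7 and 114 TPM.

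The atypical cadherins that head the pathway in flies were nearly limited to Fat1. Of 7 FAT and dachsous genes 2 were detected, Fat1 at 99.3 ± 7.66 TPM, from 181, 190 and 203 counts, and Fjx1, a kinase gene related to the fly gene four-jointed, with 2 counts, both in replicate 2. Fat3 and Dchs1 had 0 counts, and Fat2, Fat4 and Dchs2 had 1 each. The detected number rests on single counts: it was 4 without replicate 1 and 5 without replicate 3.

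Polarity genes, which place the pathway at junctions, were detected in 10 of 11 cases, with a median of 34.6 ± 3.66 TPM, led by Pard6b (87.4 ± 3.40 TPM), Scrib (73.9 ± 21.1 TPM), Llgl1 (70.7 ± 18.2 TPM) and Dlg1 (68.7 ± 5.64 TPM). At 10 CPM 8 of the 11 remained, Crb2 had 4 counts, all in replicate 1, and Crb1 had 0 counts. All 6 RASSF scaffold genes were detected, and 4 of them reached 10 CPM. The median of the 6, 11.0 ± 0.396 TPM, was below that of detected genes, and Rassf3 was the highest at 55.1 ± 2.53 TPM. Rassf1 had 13.8 TPM, with 42.7% of its exon bases opposite Gm9917, and Rassf2 and Rassf6 had 11.0 and 10.9 TPM.

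The STRIPAK complex, a phosphatase assembly that switches off the MST kinases, had 11 of 12 genes detected and a median of 69.7 ± 5.20 TPM. The phosphatase 2A subunit genes Ppp2r1a (369 ± 11.6 TPM), Ppp2cb (257 ± 24.5 TPM) and Ppp2ca (238 ± 27.3 TPM) led it, and they also serve many other complexes. Of the stretches of Ppp2ca, 41.0% occur in other genes, mostly in 9430098F02Rik, a long non-coding RNA gene on the opposite strand. The strand setting of the counting is not stated, so the level of Ppp2ca is uncertain. Slmap, the adaptor that ties the complex to MST, had 83.5 ± 5.53 TPM, and Strip2 had 1 count.

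Genes for proteins that retain or degrade phosphorylated YAP and TAZ had the highest median, 190 ± 22.8 TPM, with 11 of 11 detected and 10 at 10 CPM. The leading genes were those of phosphoserine-binding adaptors, with Ywhae at 1616 ± 9.18 TPM, Ywhaz at 456 ± 19.5 TPM, Ywhab at 406 ± 28.8 TPM and Ywhag at 372 ± 28.0 TPM. These adaptors bind many other partners. 15.2% of the stretches of Ywhaz occur in other genes, Gm4202 first among them.

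The vestigial-like genes encode cofactors that bind TEADs in competition with YAP and TAZ. Vgll4, the one known as a repressor of YAP, had 23.3 ± 9.38 TPM from 17, 9 and 20 counts, with replicate 2 the lowest. Vgll3 had 7.73 ± 3.93 TPM from 8, 3 and 9 counts. Vgll1 and Vgll2 had 0 counts. Both detected genes were below Tead1, Tead2, Yap1 and Wwtr1 in every library. Vgll4 had 26.4, 12.8 and 30.8 TPM, above Tead3 in replicates 1 and 3 and above Tead4 in replicate 3.

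**Figure D4:**
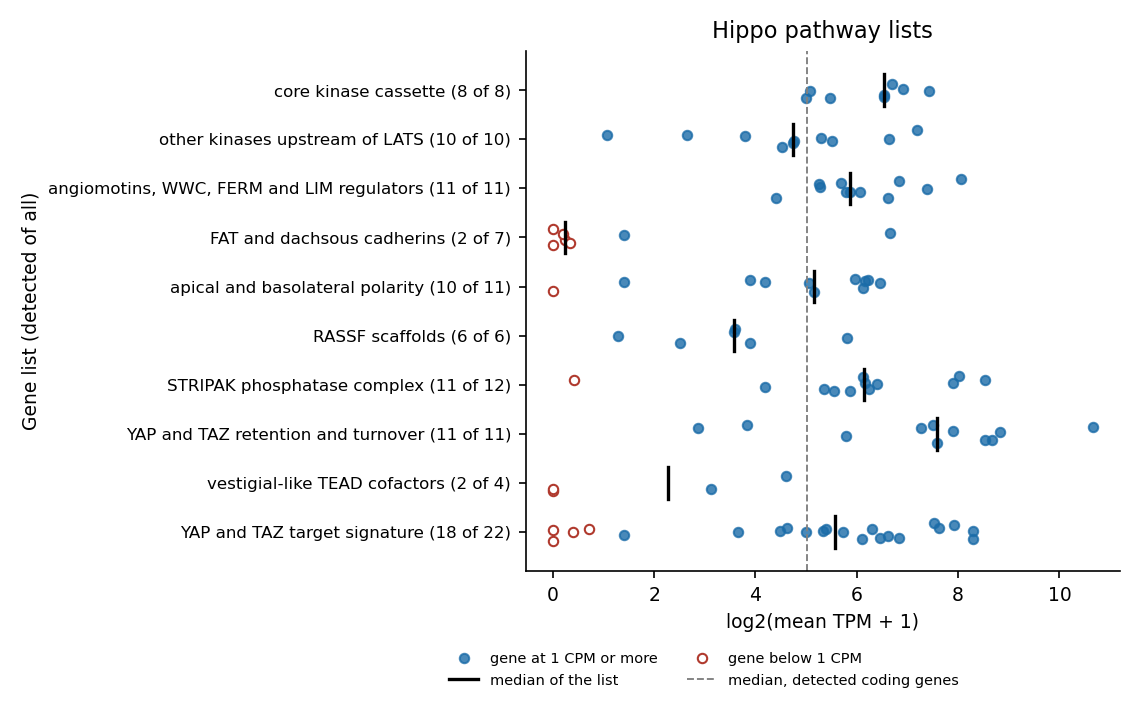
Mean level as log2(TPM + 1) (horizontal axis) of each gene in the 10 pathway lists (vertical axis, with the number detected), filled where detected at 1 CPM and open below it. Black bars are medians over all genes of a list, and the dashed line is the median of detected protein-coding genes, 31.4 TPM. The medians of 4 lists lie below that line. Over its 2 detected genes alone, the FAT and dachsous list had a median of 50.4 TPM, above the line.

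Of a list of 22 genes known as YAP and TAZ targets in human cancers, 18 were detected and 17 reached 10 CPM. The median of the 22 was 46.7 ± 3.80 TPM. Over all 21974 protein-coding genes the median was 1.51 TPM. Lats2, Amotl2, Ptpn14 and Fjx1 are also in the lists above. Without these 4 genes, 14 of 18 were detected, with the same median. The genes are also driven by other factors, so their levels do not measure YAP or TAZ activity.

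The receptor tyrosine kinase gene Axl and the gene Myof were the highest targets by mean, and their libraries overlapped. Axl had 281, 346 and 317 TPM from 169, 227 and 192 counts. Myof, which encodes the membrane repair protein myoferlin, had 303, 315 and 322 TPM, above Axl in replicates 1 and 3. Of the matricellular genes, Ccn2 (connective tissue growth factor) had 222, 271 and 230 TPM and Ccn1 had 199, 152 and 198 TPM. By mean, Ankrd1 lay between them. 23.2% of the exon bases of Ccn2 lie opposite Gm15270, which had 4 counts. Axl and Myof stood above Wwtr1 in every library.

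Ankrd1, which encodes an ankyrin repeat protein known from heart muscle, spread more than the other high targets. It had 255, 181 and 150 TPM from 88, 68 and 52 counts, with replicate 1 the highest. Its chi-square p was 0.00322 unadjusted and 0.836 after Benjamini-Hochberg adjustment, so it was not called. The highest of the 10 Hippo genes in replicate 1, Wwtr1, had 163 TPM there.

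The targets that were not detected included Igfbp3 and Foxf2, with 0 counts each, and Nt5e and Ccdc80, with 1 count each. Igfbp3 encodes a carrier of insulin-like growth factors, Foxf2 a forkhead factor of mesenchyme, Nt5e an ectonucleotidase and Ccdc80 a matrix protein. The target list therefore ran from 0 to 315 TPM in the same cells.

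**Figure D5:**
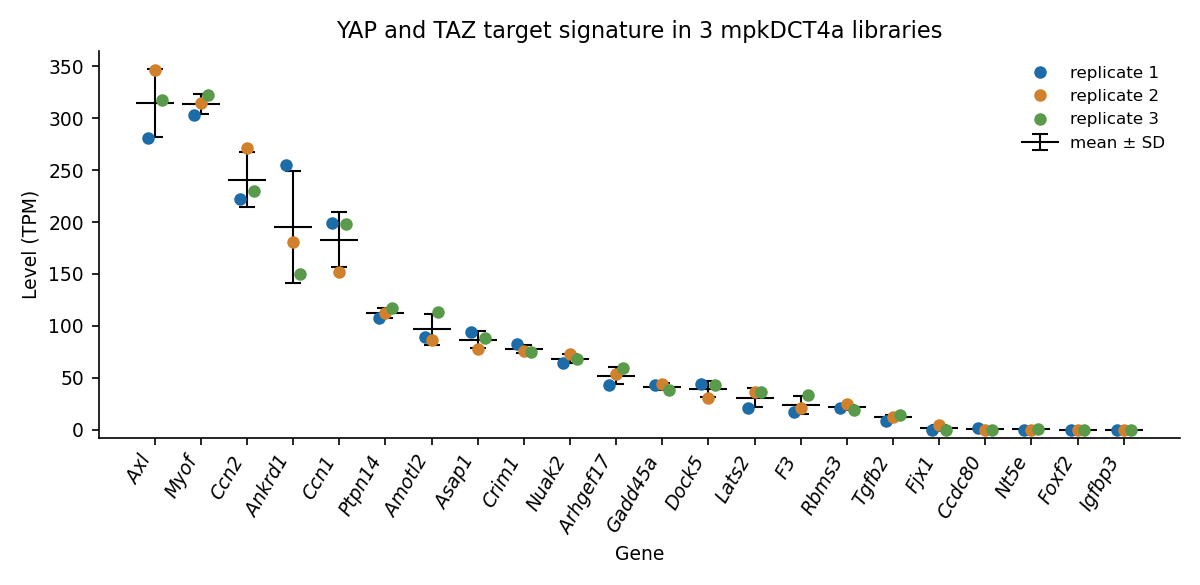
Level in TPM (vertical axis) of the 22 target genes (horizontal axis, ordered by mean) in replicates 1, 2 and 3, with the mean and SD over the 3 libraries as black bars. Axl and Myof lead at means of 315 and 313 TPM, and Foxf2 and Igfbp3 are at 0.

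The TEAD letters were also found before some of these genes. Windows were found for 15 of the 22 targets, 17 windows in all, and 6 of the 17 (35.3%) held the motif, against 12.6% of all windows. They were those of Amotl2, Ccn1, Ankrd1, Axl, Crim1 and Ptpn14, 1 each, and the window of Myof did not hold it. The windows of Axl, chosen among those with a match, and Ccn1, a gene much used as a YAP target and named here after its value was seen, are shown with the motif in capitals. The Axl window is chr7:25788734-25788983, minus strand, with the motif at position -233, and the Ccn1 window is chr3:145649986-145650235, minus strand, with its reverse complement at position -103.
Axl: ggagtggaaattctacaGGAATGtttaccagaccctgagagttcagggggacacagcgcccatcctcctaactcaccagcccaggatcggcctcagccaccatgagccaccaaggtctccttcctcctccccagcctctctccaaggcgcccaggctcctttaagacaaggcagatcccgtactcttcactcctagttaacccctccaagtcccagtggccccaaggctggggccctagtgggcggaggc
Ccn1: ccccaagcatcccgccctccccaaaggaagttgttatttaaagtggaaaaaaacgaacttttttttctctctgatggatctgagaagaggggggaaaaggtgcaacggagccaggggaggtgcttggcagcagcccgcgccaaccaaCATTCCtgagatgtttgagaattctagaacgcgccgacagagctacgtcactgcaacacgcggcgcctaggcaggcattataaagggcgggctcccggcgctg
Ankrd1 has matches at positions -210 and -123. As for Yap1 and Wwtr1, these matches are letters in a fixed window, and binding was not measured in these libraries.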

How the data were processed

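The authors deposited raw counts per Ensembl gene, as whole numbers, for the 3 libraries. Per the submitters' processing notes, mm10, STAR and HTSeq were used. Not given in the sources used here are versions, strand setting, annotation release and the handling of reads that match several genes. Per the labels' protocols, libraries came from 500 ng of total RNA with fragments of about 300 bp.

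55227 of 55487 identifiers matched GENCODE M21 (GRCm38), and the 260 others held 313 counts (0.0230%). TMM factors from edgeR 4.0.16 (R 4.3.3) scaled the library sizes. TPM used merged exon lengths. The chi-square test was tested on simulated data before use. Sign-flip tests used log2(TPM + 0.5). Ratios have 95% exact binomial (Clopper-Pearson) intervals of summed counts, scaled by length. Counting error is all that intervals and limits cover. The labels give no contrast, so edgeR served for scaling and spread alone. Alternatives were DESeq2 1.42.0 size factors, library totals, other lengths, filters and pseudocounts, and leaving out each replicate. Lengths without bases shared on the same strand, and the target list without genes of other lists, were added after the data were seen. Other steps used scipy 1.17.1, pandas 2.3.3 and numpy 2.4.6 in Python 3.11.15, with matplotlib 3.10.9 for figures.

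Genes and lists were chosen with earlier results of these data known. The text names the 10 genes, all of the core cassette, vestigial-like and paralog genes, and of each other list the 4 highest by TPM and up to 6 below 1 CPM. Ccn1, Crim1 and single cell type markers were named after their values were seen.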

Additional observations from a re-analysis of the deposited data

How the results depend on the processing

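No paired analysis was possible because the labels give 1 group, so that replicate numbers pair nothing. None of the 10 Hippo genes was called as differing between replicates under any filter, scaling or left-out replicate tried. The count of such genes over the whole table, 5, was 1 to 3 when a replicate was left out. CPM of the 10 genes moved by less than 1 SD in all 50 recomputed values, and TPM in 44, with 26 moving by more. Of the alternatives tried, the length used was the one that changed the call of a paralog pair. Without length correction Wwtr1 over Yap1 was 1.15 and Tead3 over Tead4 0.750, with intervals that include 1, and Tead1 over Tead2 turned to 1.85. With the longest transcript as length, Tead3 over Tead4 was 0.670 and Stk3 over Stk4 0.790, with intervals that include 1. Among neighbours in the order of levels, the direction also turned without length correction for Wwtr1 over Lats1 (0.882), Tead2 over Nf2 (0.893), Nf2 over Tead1 (0.605) and Tead4 over Lats2 (0.700), and with the longest transcript for Lats1 over Tead2 (0.729) and Tead1 over Yap1 (0.823). Tead4 over Lats2 also turned over exon bases not shared on the same strand (0.781). The detected FAT and dachsous genes, 2, were 1 at 10 CPM and 1 where every library needed a count, and 2 to 5 with a replicate left out, by construction of those thresholds. Lengths less 300 bases lowered every TPM (Yap1 to 12.8), since near-zero lengths give short RNAs a larger share of the total, and left the paralog pairs on their side of 1. The replicates being shallow, a gene with 0 counts could still lie at up to about 2.20 CPM, so 0 counts do not show absence. The threshold of 1 CPM also lets in genes with few counts, such as Fjx1 with 2 and Pdgfrb with 3 over the group.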

Other observations

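Of the 98 genes in the pathway lists, 85 were tested between replicates, and 4 of these (4.71%) had an unadjusted chi-square p under 0.05, against 4.89% of all 12473 genes tested. None passed Benjamini-Hochberg adjustment over all genes tested.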
